A study of Mus musculus with 4 samples.

Results

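The tumour necrosis factor (TNF) family genes of mouse cardiac fibroblasts were followed with and without TGFbeta. They were taken by symbol: Tnf, Lta, Ltb, Ltbr, Fas, Fasl, Cd27, Cd40, every Tnfsf and Tnfrsf number, and Traf1 to Traf7. The symbols picked out 46 of the 33641 genes measured, namely 15 ligands, 24 receptors and 7 TRAF adaptors. The cells were primary cardiac fibroblasts of wild-type C57BL/6J mice aged 12 weeks, 2 libraries with 10 ng/ml TGFbeta and 2 with vehicle, called TGFbeta 1, TGFbeta 2, vehicle 1 and vehicle 2 here. All 4 cultures also received 4-thiouridine at 20 and 4 h before crosslinking with light of 368 nm. The series text speaks of RNA recovered from the RNA-binding protein HuR by PAR-CLIP, whereas the sample labels give total RNA as the molecule sequenced. The values below are therefore levels in these libraries, and binding by HuR cannot be told apart from abundance. Nothing in the labels tells whether a group's libraries came from separate animals or cultures, so p-values measure only the spread between these samples.

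TNF ligands are trimeric proteins, made at the cell membrane and often shed from it, that cluster their receptors. Receptors with a death domain can start cell death through Fadd and caspase 8, or NF-kappaB signalling through Tradd and Ripk1. Other receptors recruit TRAF adaptors directly, and decoy receptors bind a ligand without passing on its signal. Cardiac fibroblasts carry TNF receptors and respond to the inflammatory cytokines of an injured heart.

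With TGFbeta, 4 receptor genes rose and no family gene fell past the test. Tnfrsf11b, the gene of the decoy receptor osteoprotegerin, rose 2.91-fold, Cd40 2.88-fold, Tnfrsf12a, the gene of the TWEAK receptor Fn14, 2.31-fold and Tnfrsf23, a mouse decoy receptor gene, 1.83-fold. The type 1 TNF receptor gene Tnfrsf1a, the most abundant member in vehicle libraries, had a TGFbeta level of 0.671 of vehicle and missed the threshold. Tnf itself was measured below 1 TPM in all 4 libraries, and 10 of the 15 ligands averaged less than that.

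Levels are given in TPM (a transcript's share of all transcripts on a fixed total of 1000000, corrected for its length), so they can be set side by side between genes. A gene was tested if its mean over the 4 libraries reached 1 TPM, which 31 of the 46 members and 15815 genes in all did. Changes are differences of log2(TPM + 1), TGFbeta minus vehicle, each with the standard error (SE) of limma, a linear model fitted across all tested genes. A gene was called where the p adjusted over all tested genes was below 0.05. Of the 31 tested members 4 were called higher and 0 lower, against 1.54% of tested genes called higher and 4.38% called lower, or 5.92% in either direction. At an unadjusted limma p under 0.05 there were 11 members, 6 higher and 5 lower (24.5% of all tested genes). The closest members to the filter were Tnfrsf21 inside it at a mean of 1.05 TPM and Tnfsf10 outside it at 0.735 TPM.

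**Figure D1:**
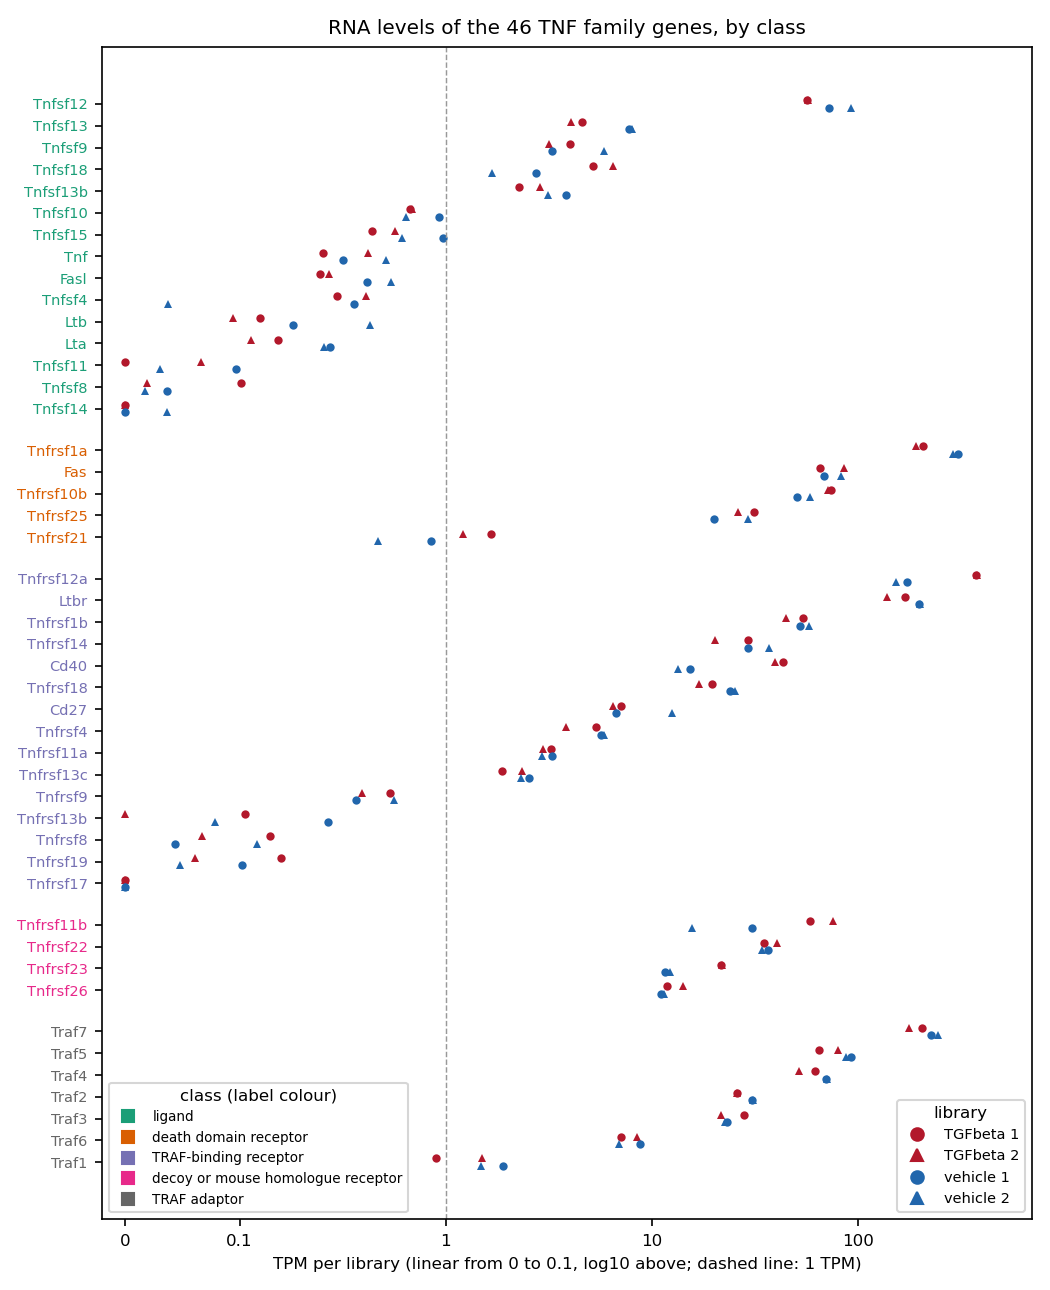
TPM of each of the 46 family genes in the 4 libraries, on an axis that is linear up to 0.1 TPM and log10 above, with genes grouped by class and red for TGFbeta, blue for vehicle. Most receptors and TRAF genes lie above the dashed 1 TPM line, while 10 of 15 ligands lie below it on average, and the TGFbeta values of Tnfrsf12a, Cd40, Tnfrsf11b and Tnfrsf23 lie to the right of the vehicle values.

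The ligands were scarce. The 10 that averaged under 1 TPM were Fasl, Lta, Ltb, Tnf, Tnfsf4, Tnfsf8, Tnfsf10, Tnfsf11, Tnfsf14 and Tnfsf15, with single values from 0 to 0.972 TPM. Tnf, which encodes the founding inflammatory cytokine, had 0.253 and 0.422 TPM with TGFbeta, against 0.317 and 0.511 TPM with vehicle. Tnfsf10, the gene of the death ligand TRAIL, had 0.674 and 0.690 TPM with TGFbeta, against 0.933 and 0.643 TPM with vehicle. Both genes overlapped between the groups. Fasl, which encodes the ligand of Fas, had 0.245 and 0.273 TPM with TGFbeta, against 0.414 and 0.545 TPM with vehicle. Tnfsf11, the gene of the osteoclast cytokine RANKL, was listed at 0 in TGFbeta 1 and at 0.0666 TPM in TGFbeta 2, against 0.0965 and 0.0302 TPM with vehicle. These 10 genes were not tested, and the number of reads behind such low levels is unknown. Fasl, Lta, Ltb and Tnfsf15 were lower in both TGFbeta libraries than in both vehicle libraries, as were 39.8% of all tested genes. That share leaves out genes under the filter, to which these ligands belong.

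Among ligands that reached the filter, Tnfsf12, which encodes TWEAK, the ligand of Fn14, was the most abundant. It had 56.4 and 57.0 TPM with TGFbeta, against 72.7 and 92.8 TPM with vehicle (log2 change -0.53, SE 0.16, limma adjusted p = 0.112). Tnfsf13, the gene of the B cell factor APRIL next to it, had 4.595 and 4.07 TPM with TGFbeta, against 7.75 and 8.07 TPM with vehicle. Its log2 change of -0.74 (SE 0.18) was the most negative of the 31 tested members and missed the threshold (limma adjusted p = 0.0705). In both genes each TGFbeta library lay under each vehicle library.

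The pair lies on chromosome 11, minus strand (GENCODE M21, GRCm38), Tnfsf13 from 69682846 to 69685784 and Tnfsf12 from 69686250 to 69695849, with 465 bases between them. Of all 50-base stretches in their annotated transcripts, 57.3% of those of Tnfsf13 and 46.8% of those of Tnfsf12 also occur in Tnfsfm13, a readthrough gene. Their values are therefore uncertain singly. Tnfsfm13 had 8.72 and 10.9 TPM with TGFbeta, against 13.7 and 18.1 TPM with vehicle. The 3 genes summed to 69.7 and 72.0 TPM with TGFbeta, against 94.1 and 119 TPM with vehicle, so the sum did not overlap between groups either.

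Tnfsf18, which encodes GITR ligand, a costimulator of T cells, had 5.19 and 6.495 TPM with TGFbeta, against 2.74 and 1.68 TPM with vehicle. The groups did not overlap, and the log2 change of 1.11 (SE 0.25) missed the threshold (limma adjusted p = 0.0577). It passed when libraries were scaled to a common median (1.26, limma adjusted p = 0.0353), with quantile normalization (1.27, limma adjusted p = 0.0423) and in a fit robust to outlying variances (1.11, limma adjusted p = 0.0383). Tnfsf13b, the gene of the B cell factor BAFF, had 2.27 and 2.86 TPM with TGFbeta, against 3.84 and 3.14 TPM with vehicle. Tnfsf9, which encodes the 4-1BB ligand, had 4.00 and 3.19 TPM with TGFbeta, against 3.27 and 5.85 TPM with vehicle. Neither passed the test, with log2 changes of -0.33 and -0.24.

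Fn14, the product of Tnfrsf12a, is a small receptor that binds TWEAK and signals through TRAF adaptors. Its gene (ENSMUSG00000023905.15, chromosome 17, 23675445 to 23677468, minus strand, GENCODE M21 on GRCm38) had 376 and 379 TPM with TGFbeta, against 174 and 153 TPM with vehicle. Each TGFbeta library was above each vehicle library, and the gene had place 1 among the 46 members in both TGFbeta libraries, against place 4 in both vehicle libraries. Its mean was 377 ± 2.13 TPM with TGFbeta and 164 ± 14.8 TPM with vehicle (SD, n = 2 each). The log2 change was 1.20 (SE 0.14, limma adjusted p = 0.0116). Tnfrsf12a took 22.3% and 23.3% of the TPM summed over the family with TGFbeta, against 10.9% and 9.42% with vehicle. The family sum itself was 1686 and 1628 TPM with TGFbeta, against 1599 and 1625 TPM with vehicle. Set over its ligand gene, Tnfrsf12a had 6.67 and 6.65 times the TPM of Tnfsf12 with TGFbeta, against 2.39 and 1.65 times with vehicle.

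Cd40 encodes a receptor best known from B cells and antigen-presenting cells, which recruits TRAF adaptors when it meets CD40 ligand. The gene (ENSMUSG00000017652.16, chromosome 2, 165055627 to 165072948, plus strand) had 43.3 and 39.8 TPM with TGFbeta, against 15.4 and 13.5 TPM with vehicle. The groups lay far apart relative to the spread within either. The mean was 41.5 ± 2.51 TPM with TGFbeta and 14.4 ± 1.36 TPM with vehicle (SD, n = 2 each), with a log2 change of 1.46 (SE 0.15, limma adjusted p = 0.0104). Cd40lg, the gene of its ligand, was listed at 0 in all 4 libraries.

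Osteoprotegerin, the product of Tnfrsf11b, is a secreted decoy that binds RANKL and TRAIL. Tnfrsf11b (ENSMUSG00000063727.3, chromosome 15, 54250619 to 54278484, minus strand) had 58.6 and 76.2 TPM with TGFbeta, against 30.7 and 15.6 TPM with vehicle. Both groups were wide, but both TGFbeta values exceeded both vehicle values. The mean was 67.4 ± 12.5 TPM with TGFbeta and 23.1 ± 10.6 TPM with vehicle (SD, n = 2 each). This was the largest log2 change of the 31 tested members, 1.56, with the largest SE (0.31) and a p close to the threshold (limma adjusted p = 0.0462). It was 2.03 without vehicle 1 and 1.10 without vehicle 2. The signalling receptor for RANKL, Tnfrsf11a, had 3.26 and 2.96 TPM with TGFbeta, against 3.27 and 2.94 TPM with vehicle, and its groups overlapped (log2 change 0.00, SE 0.20, limma adjusted p = 0.995). The decoy thus stood at 18.0 and 25.7 times the TPM of Tnfrsf11a with TGFbeta, against 9.37 and 5.32 times with vehicle.

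Tnfrsf23 lies in a row with its close relatives Tnfrsf22 and Tnfrsf26 on chromosome 7, minus strand. In mice Tnfrsf22 and Tnfrsf23 encode decoy receptors for TRAIL. Tnfrsf23 (143665809 to 143685872) had 21.7 and 21.9 TPM with TGFbeta, against 11.6 and 12.3 TPM with vehicle. Its libraries agreed closely within groups, and the log2 change was 0.82 (SE 0.15, limma adjusted p = 0.0380). The call was lost with the replicate number as a block (limma adjusted p = 0.0754). Tnfrsf22 (143634806 to 143649661) had 35.2 and 40.5 TPM with TGFbeta, against 36.7 and 34.4 TPM with vehicle, and overlapped (log2 change 0.08, SE 0.15, limma adjusted p = 0.771). Tnfrsf26 had 11.8 and 14.2 TPM with TGFbeta, against 11.1 and 11.5 TPM with vehicle, which do not overlap but differ little (log2 change 0.18, SE 0.17, limma adjusted p = 0.572). Whether the change of Tnfrsf23 differs from that of its neighbours was not tested.

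The coding sequences of Tnfrsf22 and Tnfrsf23 were 90.6% identical over 531 aligned bases, with a shared run of 102 bases. Those of Tnfrsf22 and Tnfrsf26 were 59.8% identical over 528 aligned bases. Of the 50-base stretches in annotated Tnfrsf23 transcripts, 18.0% also occur in Tnfrsf22, so reads could have been assigned to either gene. Summed, the pair had 56.9 and 62.4 TPM with TGFbeta, against 48.3 and 46.7 TPM with vehicle, a 1.26-fold difference in the same direction. The first lines below show 60 coding bases where the copies differ most, at 10 positions in capitals, beginning at coding base 90 of Tnfrsf22 and 60 of Tnfrsf23. The last line shows 60 bases of the shared run, in which the genes do not differ. All are GENCODE M21 transcript sequence on the coding strand.
Tnfrsf22, divergent: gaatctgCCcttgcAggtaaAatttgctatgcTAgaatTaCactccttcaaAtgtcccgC
Tnfrsf23, divergent: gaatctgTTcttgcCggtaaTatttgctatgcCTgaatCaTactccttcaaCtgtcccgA
Tnfrsf22 and Tnfrsf23, shared: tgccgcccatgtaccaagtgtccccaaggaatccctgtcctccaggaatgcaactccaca

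**Figure D2:**
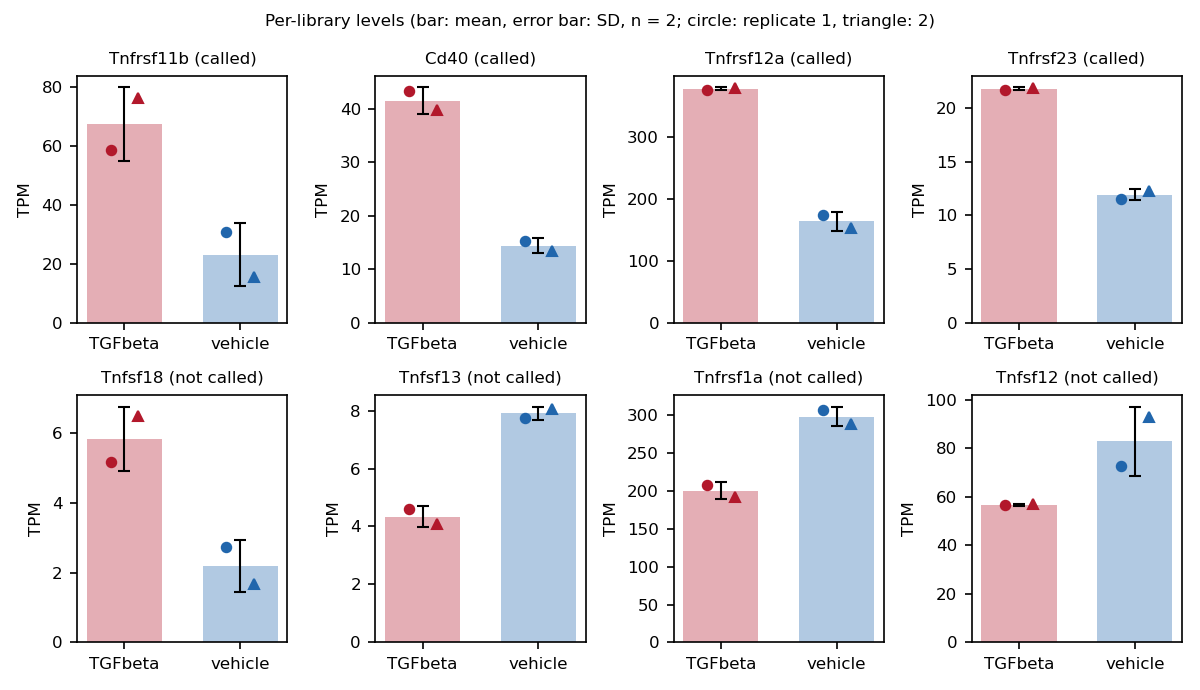
TPM in each library for the 4 called genes and 4 further members that missed the threshold, with bars for the mean, error bars for the SD (n = 2) and separate linear axes from 0. TGFbeta values of Tnfrsf11b, Cd40, Tnfrsf12a, Tnfrsf23 and Tnfsf18 stand above vehicle, those of Tnfsf13, Tnfrsf1a and Tnfsf12 below it.

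Of the 5 death domain receptors, 0 passed the test (limma, 2 at an unadjusted p under 0.05). Over all tested genes 5.92% passed and 24.5% had an unadjusted p under 0.05, so 0 passing among 5 is near the general share. Tnfrsf1a, through which soluble TNF acts on most cells, had 208 and 192 TPM with TGFbeta, against 307 and 289 TPM with vehicle. The groups did not overlap, and the log2 change of -0.57 (SE 0.13) missed the threshold (limma adjusted p = 0.0604). It passed when the filter was raised to a mean of 5 TPM (limma adjusted p = 0.0376). Tnfrsf1a had rank 2 in the family in both TGFbeta libraries, behind Tnfrsf12a, and rank 1 in both vehicle libraries. The receptor gene with both membrane-bound and soluble TNF as ligand but no death domain, Tnfrsf1b, had 54.3 and 45.0 TPM with TGFbeta, against 52.5 and 57.6 TPM with vehicle, with overlap (log2 change -0.15, SE 0.15, limma adjusted p = 0.599).

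Tnfrsf10b, the gene of the only mouse TRAIL receptor with a death domain, had 73.7 and 71.8 TPM with TGFbeta, against 50.9 and 58.6 TPM with vehicle. It did not overlap, and its log2 change was 0.41 (SE 0.14, limma adjusted p = 0.142). Fas, the best known death receptor, had 65.4 and 85.6 TPM with TGFbeta, against 68.4 and 83.3 TPM with vehicle. Its values spread as widely within groups as over all 4 libraries (log2 change -0.01, SE 0.18, limma adjusted p = 0.977). Tnfrsf21, the gene of death receptor 6, had 1.66 and 1.22 TPM with TGFbeta, against 0.846 and 0.469 TPM with vehicle. It reached the 1 TPM filter through the TGFbeta libraries, and its log2 change was 0.56 (SE 0.25, limma adjusted p = 0.24). Tnfrsf25, the receptor gene for the ligand encoded by Tnfsf15, overlapped at 31.2 and 26.1 TPM with TGFbeta, against 20.0 and 29.2 TPM with vehicle.

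Of 15 TRAF-binding receptor genes 10 were tested, of which Cd40 and Tnfrsf12a rose and 8 did not pass. Over all tested genes 1.54% were called higher and 5.92% in either direction. Ltbr, the lymphotoxin beta receptor gene, had 169 and 139 TPM with TGFbeta, against 199 and 199 TPM with vehicle (log2 change -0.38, SE 0.15, limma adjusted p = 0.189). Tnfrsf18, which encodes GITR, the receptor of the Tnfsf18 product, had 19.7 and 17.0 TPM with TGFbeta, against 23.9 and 25.3 TPM with vehicle (log2 change -0.41, SE 0.15, limma adjusted p = 0.177). Both genes were lower in both TGFbeta libraries without passing. Tnfrsf14, the gene of the herpesvirus entry mediator HVEM, overlapped at 29.3 and 20.2 TPM with TGFbeta, against 29.2 and 36.9 TPM with vehicle (log2 change -0.42, SE 0.22, limma adjusted p = 0.309). Cd27, a lymphocyte receptor gene, had 7.13 and 6.45 TPM with TGFbeta, against 6.67 and 12.5 TPM with vehicle, where vehicle 2 alone was high. The log2 change of Cd27 was -0.39, and 0.02 without vehicle 2. Tnfrsf4, which encodes OX40, and Tnfrsf13c, the BAFF receptor gene, had log2 changes of -0.28 and -0.15. The other 5, Tnfrsf8, Tnfrsf9, Tnfrsf13b, Tnfrsf17 and Tnfrsf19, stayed between 0 and 0.561 TPM and were not tested, with Tnfrsf17 listed at 0 in all 4 libraries.

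**Figure D3:**
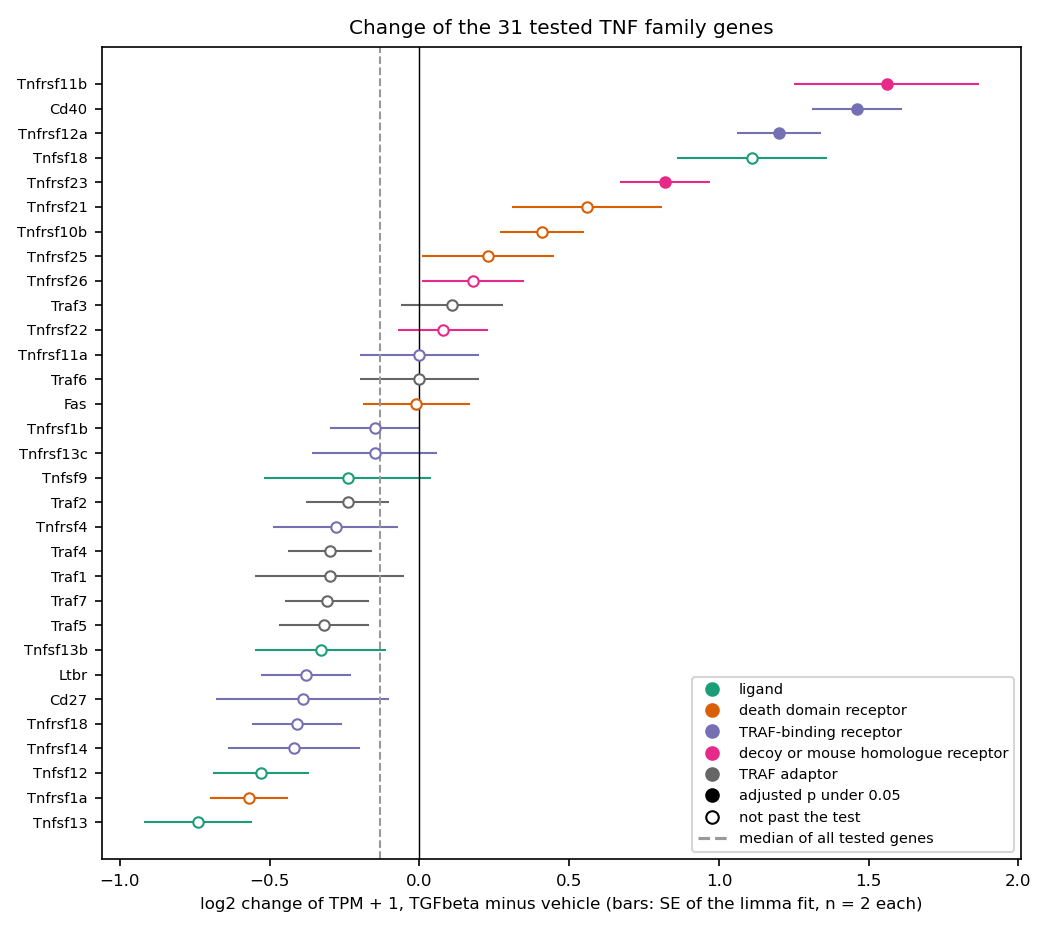
Log2 change (TGFbeta minus vehicle) of the 31 tested family genes with the SE of the fit as bars, coloured by class, filled where the limma adjusted p was under 0.05. The 4 filled points are receptors between 0.82 and 1.56, and the dashed line marks the median of all tested genes at -0.13.

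The TRAF adaptors link receptors to NF-kappaB and stress kinases, and 0 of 7 passed the test (limma, 0 at an unadjusted p under 0.05). Over all tested genes 5.92% passed and 24.5% had an unadjusted p under 0.05, so 0 passing among 7 is near the general share. Traf2, the adaptor of the TNF receptors, had 25.9 and 25.8 TPM with TGFbeta, against 30.5 and 30.98 TPM with vehicle (log2 change -0.24, SE 0.14, limma adjusted p = 0.341). Traf3, which restrains alternative NF-kappaB signalling, overlapped at 28.1 and 21.7 TPM with TGFbeta, against 23.2 and 22.6 TPM with vehicle. Traf6, the adaptor shared by CD40, RANK and Toll-like receptors, overlapped at 7.11 and 8.52 TPM with TGFbeta, against 8.78 and 6.92 TPM with vehicle. Traf1, which NF-kappaB induces in many cells, had 0.896 and 1.51 TPM with TGFbeta, against 1.89 and 1.49 TPM with vehicle, and overlapped too. Traf7 was the most abundant adaptor gene, at 204 and 177 TPM with TGFbeta, against 227 and 245 TPM with vehicle. Traf2, Traf4, Traf5 and Traf7 were lower in both TGFbeta libraries, with log2 changes from -0.32 to -0.24. Among all tested genes 39.8% were lower in both, and the median log2 change was -0.13.

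Without regard to size, 8 of the 31 tested members had both TGFbeta libraries above both vehicle libraries and 11 had both below, against 15.5% and 39.8% of all tested genes, or 55.3% in either direction. The members' median log2 change was -0.15, close to the median of -0.13 of all tested genes. Median scaling moved the median of all tested genes to 0.03 and quantile normalization to 0.02, and the members' median to 0.00 and -0.02. Under these scalings 16 and 15 members had a positive log2 change, against 12 in the values as deposited. The 4 called genes stayed called under both scalings.

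Members that rose were also looked at in their promoters, since a shared letter pattern would be visible there. RefSeq (GRCm38.p6) gave a window from 250 bases before to 50 after the start for 38 of the 46 members, among the called genes for Tnfrsf12a and Tnfrsf23. The windows were searched on both strands for the Smad element CAGAC, the AP-1 site TGANTCA and the NF-kappaB consensus. The 150 bases before the RefSeq start are at chr17:23677450-23677599 for Tnfrsf12a and chr7:143685876-143686025 for Tnfrsf23, both on the minus strand, with capitals for a match that lies wholly before the start.
Tnfrsf12a: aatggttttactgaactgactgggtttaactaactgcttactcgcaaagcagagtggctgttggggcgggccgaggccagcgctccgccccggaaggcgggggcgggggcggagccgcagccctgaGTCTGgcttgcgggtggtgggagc
Tnfrsf23: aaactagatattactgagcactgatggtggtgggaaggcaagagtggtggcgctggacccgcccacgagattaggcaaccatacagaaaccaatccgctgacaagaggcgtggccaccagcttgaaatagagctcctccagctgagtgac

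In Tnfrsf12a the Smad letters occurred at bases -24 to -20 and again across the start, and in Tnfrsf23 after the start only. Of the promoters of all tested genes, 47.8% hold these 5 letters on either strand, so a match is common. AP-1 letters were in 5.19% and the NF-kappaB consensus in 4.97% of promoters of tested genes, and neither was in these 2 windows. Over the windows of the 24 tested members that have one, the shares were 54.2% for Smad, 12.5% (3 windows) for AP-1 and 4.17% (1 window) for NF-kappaB.

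Tnf is a classical example of an mRNA with AU-rich elements in its 3′ untranslated region (UTR), to which HuR and decay factors bind. The nonamer TTATTTATT was therefore counted in the longest annotated 3′ UTR of each gene (GENCODE M21). It occurred in 6 of the 46 members. Of the 31 tested members 4 held it, 12.9%, against 8.30% of tested genes with a 3′ UTR. Tnf held 5 copies, some overlapping, and Lta, Tnfrsf10b, Tnfrsf22, Tnfsf13b and Traf4 held 1 each. None of these 6 was called (limma) or, for Tnf and Lta, tested. The called genes Cd40, Tnfrsf11b, Tnfrsf12a and Tnfrsf23 held no nonamer, and 7, 3, 1 and 1 copies of the pentamer ATTTA. The first nonamer with its flanks, in capitals, is shown for a ligand pair on chromosome 17 and for the death receptor gene and the adaptor gene that hold it.
Tnf: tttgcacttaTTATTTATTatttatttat
Lta: aaaagttaagTTATTTATTtatagagaat
Tnfrsf10b: taattttttaTTATTTATTttcttcattc
Traf4: ccctctctggTTATTTATTtctctagtgc

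Outside the numbered symbols the family has further members, of which 3 of 7 were tested and 1 rose, beside 1.54% of all tested genes called higher. Relt, an orphan TNF receptor gene, had 26.7 and 22.8 TPM with TGFbeta, against 8.19 and 5.62 TPM with vehicle. It was 3.58-fold higher, with a log2 change of 1.72 (SE 0.21, limma adjusted p = 0.0154). Eda2r, a receptor gene for ectodysplasin A2, had 25.2 and 27.9 TPM with TGFbeta, against 18.1 and 15.9 TPM with vehicle, and missed the threshold (log2 change 0.62, SE 0.16, limma adjusted p = 0.0758). Its ligand gene Eda had a log2 change of 0.08, and Cd70 was listed at 0 in all 4 libraries like Cd40lg.

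Genes downstream of the receptors were described by lists. Called genes of the whole table were mostly lower too, 692 lower against 244 higher, a balance that median scaling turned to 401 lower and 421 higher. Of 14 tested receptor adaptors and death effectors 1 fell, 0 rose and 13 did not pass, a count near the 4.38% of all tested genes called lower, with a median log2 change of -0.12, against -0.13 over all tested genes. The gene that fell was Birc2, which encodes the TRAF2-bound ubiquitin ligase cIAP1, with 16.5 and 18.8 TPM with TGFbeta, against 35.2 and 29.7 TPM with vehicle (log2 change -0.84, SE 0.16, limma adjusted p = 0.0433). Tradd, the first adaptor of TNF receptor 1, had a log2 change of -0.56 and Bid, a death effector, of -0.31, and neither passed. Casp8, Fadd and Ripk1 had log2 changes of 0.00, -0.08 and -0.21.

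Of 19 genes for ubiquitin editing and kinases 3 fell, 0 rose and 16 did not pass (median -0.34). Of all tested genes, 4.38% were called lower and 1.54% higher, with a median of -0.13. Trafd1, which encodes a TRAF-like zinc finger protein that restrains innate signalling, fell by 1.02 (limma adjusted p = 0.0216). Ikbke, the gene of a kinase related to TBK1, fell by 0.87 (limma adjusted p = 0.0233), and Tnip2, an A20-binding inhibitor gene, by 0.62 (limma adjusted p = 0.0491) on the log2 scale. Traip, a TRAF-interacting ubiquitin ligase gene, had a log2 change of -0.90 and did not pass. Tnfaip3, which encodes A20, had 4.71 and 3.03 TPM with TGFbeta, against 7.55 and 4.65 TPM with vehicle, and did not pass.

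Of 14 genes of the NF-kappaB core and its inhibitors 3 fell, 0 rose and 11 did not pass (median -0.39). The share called lower over all tested genes was 4.38%, and their median -0.13. All 3 belong to the inhibitor of kappaB family, of which Nfkbia and Nfkbie encode cytoplasmic inhibitors and Bcl3 a nuclear cofactor. Bcl3 had 15.7 and 16.9 TPM with TGFbeta, against 48.5 and 48.4 TPM with vehicle, a log2 change of -1.52 (SE 0.14, limma adjusted p = 0.00795). Nfkbie fell by 0.89 (limma adjusted p = 0.0475) and Nfkbia by 0.79 (limma adjusted p = 0.0382) on the log2 scale. The subunit genes Rela, Relb, Nfkb1 and Nfkb2 had log2 changes of -0.40, -0.54, -0.38 and -0.25, and did not pass.

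Genes that TNF induces in many cells went both ways: of 21 tested, 6 fell, 3 rose and 12 did not pass (median -0.43). Over all tested genes 4.38% were called lower and 1.54% higher (median -0.13). The neutrophil chemokine gene Cxcl1 had 6.17 and 8.44 TPM with TGFbeta, against 50.2 and 52.0 TPM with vehicle, a log2 change of -2.66 (limma adjusted p = 0.00506). Cxcl5 fell by 2.61, the monocyte chemokine gene Ccl7 by 1.37, the complement gene C3 by 1.24, the pentraxin gene Ptx3 by 1.00 and Tnfaip2 by 0.96 on the log2 scale (limma adjusted p = 0.00988 to 0.0370). Ptgs2, the gene of cyclooxygenase 2, had 15.5 and 15.8 TPM with TGFbeta, against 3.36 and 2.31 TPM with vehicle, a log2 change of 2.13 (limma adjusted p = 0.00947). Lif, a cytokine gene, rose by 1.53 and the stress gene Ier3 by 0.74 (limma adjusted p = 0.00962 and 0.0328). Of the 9 tested genes for shedding of ligands and receptors 0 passed (limma, 2 at an unadjusted p under 0.05). Adam17, which encodes the main TNF sheddase, had a log2 change of -0.31, and Timp3, the gene of its inhibitor, of 0.63 (limma adjusted p = 0.0624), with Frmd8 at -0.44 and Rhbdf2 at -0.38.

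**Figure D4:**
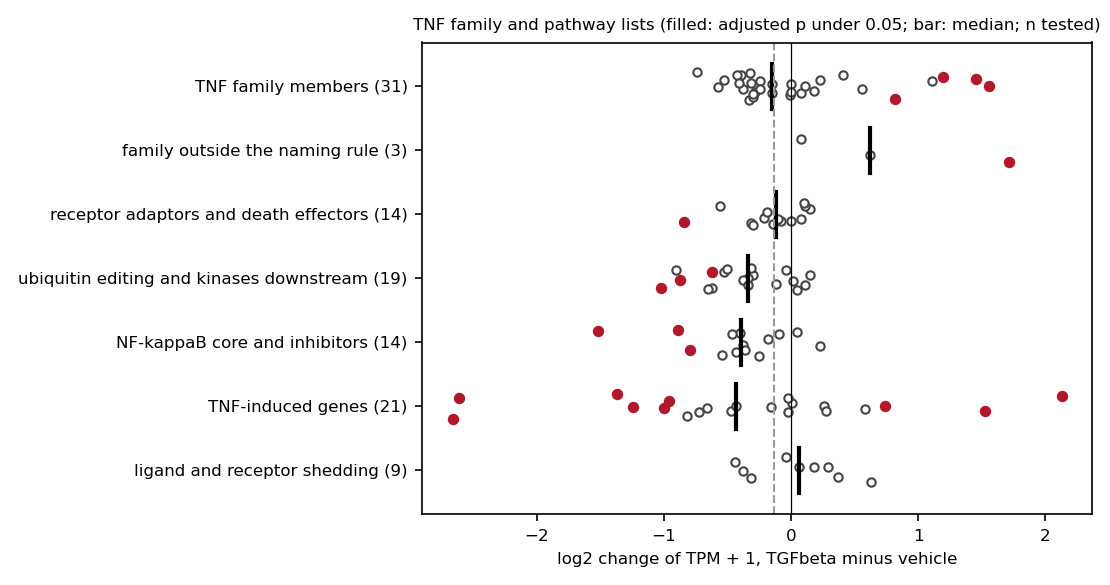
Log2 change (TGFbeta minus vehicle) of each tested gene in the TNF family and in 6 lists of related genes, with black bars for list medians, filled points for a limma adjusted p under 0.05 and a dashed line at the median of all tested genes. Called points lie to the right among the family genes and to the left among the NF-kappaB and ubiquitin genes, and on both sides among TNF-induced genes.

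These lists share the same 4 libraries and the same fit. With median scaling, 1 NF-kappaB gene (in place of 3), 2 ubiquitin and kinase genes (in place of 3) and 0 receptor adaptors (in place of 1) were called by limma, while the TNF-induced genes stayed at 9, the shedding genes gained 1 (in place of 0) and the family genes outside the numbered symbols had 2 (in place of 1). With any library left out, each of these lists that had called genes had fewer. Called genes became fewer over the whole table too, and the reduced group then rested on a single library. In bulk RNA, fewer cells of a type and less RNA per cell cannot be told apart. All 11 fibroblast markers reached the filter, with a median log2 change of -0.40. Pdgfra and Tcf21 fell, by 1.42 and 1.11 on the log2 scale (limma adjusted p = 0.0106 and 0.0148), and S100a4 had a log2 change of -0.91 without passing. The collagen genes Col1a1 and Col1a2 were higher in both TGFbeta libraries, with log2 changes of 0.91 and 0.48, also without passing. The collagen gene Col3a1 went the other way, with 6532 and 6979 TPM with TGFbeta, against 11210 and 9018 TPM with vehicle. Its log2 change was -0.57, without passing (limma adjusted p = 0.172). Col1a1 is on the myofibroblast list as well. The fibroblast list summed to 22100 and 21830 TPM with TGFbeta, against 26440 and 23540 TPM with vehicle. Of 8 myofibroblast genes 6 rose, Acta2, Cnn1, Postn, Cthrc1, Ctgf and Lox, with a list median of 1.37. Over all tested genes 1.54% were called higher, with a median of -0.13.

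Markers of other cells differed widely in level. Lyz2, a macrophage and leukocyte marker, had 42.9 and 48.1 TPM with TGFbeta, against 55.25 and 66.4 TPM with vehicle. Tnnt2, a cardiomyocyte marker, had 35.2 and 34.6 TPM with TGFbeta, against 47.0 and 81.4 TPM with vehicle. The other cardiomyocyte markers were lower, with Tnni3 and Nppa between 6.05 and 17.6 TPM and Myh7 and Pln between 1.11 and 3.45 TPM. Myh6, Actc1 and Ryr2 reached at most 0.394, 0.192 and 0.833 TPM in any library. For the counts that follow, 5.92% of all tested genes were called by limma and 24.5% had an unadjusted p under 0.05. Of 17 macrophage and leukocyte markers 11 were tested and 0 called (limma, 2 at an unadjusted p under 0.05). They summed to 69.8 and 75.6 TPM with TGFbeta, against 84.7 and 107 TPM with vehicle, with Nkg7 and S100a9 listed at 0 in all libraries and Ptprc between 1.05 and 1.35 TPM. The largest log2 changes were those of Cd14 (-0.70), S100a8 (-0.61) and Cd68 (-0.46). S100a8 overlapped at 0.410 and 0.666 TPM with TGFbeta, against 0.615 and 2.40 TPM with vehicle, and reached the filter through vehicle 2. Of 10 endothelial markers 9 were tested and 0 called (limma, 3 at an unadjusted p under 0.05), and they summed to 74.2 and 69.9 TPM with TGFbeta, against 92.3 and 92.6 TPM with vehicle. Cldn5 and Egfl7 had log2 changes of -0.78 each and Cdh5 of -0.56. Of 8 cardiomyocyte markers 5 were tested and 0 called (limma, 2 at an unadjusted p under 0.05), and they summed to 54.1 and 56.8 TPM with TGFbeta, against 73.6 and 114 TPM with vehicle. The largest part of that sum was Tnnt2 in every library. Tnnt2, Tnni3 and Nppa had log2 changes of -0.81, -0.77 and -0.17. Of 6 mesothelial markers 3 were tested and 0 called (limma, 1 at an unadjusted p under 0.05), and they summed to 11.4 and 11.9 TPM with TGFbeta, against 13.7 and 16.4 TPM with vehicle. Upk3b, Wt1 and Krt19 had log2 changes of -0.52, 0.37 and -0.22.

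Pericyte and smooth muscle markers went both ways, with a median log2 change of 0.43 over 6 tested. Mcam rose by 0.98 (limma adjusted p = 0.0242). Rgs5 overlapped at 1.95 and 13.5 TPM with TGFbeta, against 2.26 and 2.47 TPM with vehicle, where TGFbeta 2 alone was high. Its log2 change was 0.96 (SE 0.68) without passing. Notch3 fell to 21.1 and 17.4 TPM with TGFbeta, against 74.0 and 83.9 TPM with vehicle (log2 change -1.99, limma adjusted p = 0.00633). Notch3 thus carried the list's sum of 84.0 and 86.0 TPM with TGFbeta, against 113 and 120 TPM with vehicle. The sums of fibroblast markers and of the other cell types were all lower in both TGFbeta libraries. Myofibroblast genes summed to 21320 and 19840 TPM with TGFbeta, against 10180 and 9158 TPM with vehicle. The 4 called family genes were higher in both TGFbeta libraries too. The part of cell types and of myofibroblasts in the results was not tested.

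The calls of family genes rested on few libraries and on the filter. With every gene above 0 tested, 0 of all genes and 0 members were called (limma, 4348 and 12 at an unadjusted p under 0.05). With any library left out, some or all of the 4 calls were lost. The whole table also had fewer called genes in those runs, in which the reduced group rested on a single library. Over all runs the log2 changes lay between 1.26 and 1.62 for Cd40 and between 1.11 and 1.36 for Tnfrsf12a. Those of Tnfrsf11b lay between 1.10 and 2.03, and those of Tnfrsf23 between 0.66 and 0.97. Their sign was mostly fixed beforehand, since both TGFbeta values of each gene exceeded both vehicle values. Other pseudocounts or a library left out could not turn it, and other filters, variance models and the block leave the log2 change as it is. Only the scalings could have turned the sign.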

How the data were processed

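Per the file headers, the values the authors deposited are TPM, with 33641 gene symbols per library in 4 libraries. They total 1000000 in every library, and read depth is unknown, so no counting interval is given. No source used here names the aligner, quantifier or genome build. Genes with a mean of at least 1 TPM over the 4 libraries were compared as log2(TPM + 1) with limma 3.58.1 in R 4.3.3 (intensity trend, two-sided, Benjamini-Hochberg over 15815 genes, threshold 0.05). A permutation of 2 against 2 libraries has 6 arrangements and cannot give a p below 0.333. The fit was tested on simulated data. All tested members are named, with full statistics for the called ones and the 12 with the largest change. Of each list the called genes and the 3 with the largest change are named. Casp8, Fadd, Ripk1, Tnfaip3, Rela, Relb, Nfkb1, Nfkb2 and Adam17 were added for their known roles after their values were seen. Col1a1, Col1a2, Col3a1, Lyz2, Myh6, Myh7, Actc1, Ryr2 and Pln were added for their direction or level, also after their values were seen. The members, gene lists, tests and motifs were chosen with earlier results of these data known. Positions and transcripts are from GENCODE M21 by symbol (46 of 46 matched). The 13 alternatives are other pseudocounts, filters, scalings and variance models, a replicate block and each library left out. Genes per library above 0 ranged from 20945 to 21671.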

Additional observations from a re-analysis of the deposited data

How the results depend on the processing

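The reported test gave 936 called genes (244 higher, 692 lower) and 4 members. With every gene above 0 tested (23602 genes), 0 genes and 0 members were called (limma, 4348 and 12 at an unadjusted p under 0.05). With a mean of at least 5 TPM 1 member was called lower, Tnfrsf1a. Without an intensity trend 602 genes were called, 437 of them lower, and 2 members, Cd40 and Tnfrsf12a. Median scaling gave 421 higher and 401 lower, and quantile normalization 333 higher and 401 lower. With each library left out in turn, the genes called ran from 0 to 203 (0 to 65 higher, 0 to 138 lower) and the members called from 0 to 2, all of them higher; the lone library of the reduced group is then assumed to vary like the other group. The replicate numbers share only a number: across 15815 genes the deviations of same-numbered libraries had a correlation of -0.0539. With the replicate block 186 genes were called higher and 445 lower, and 3 members, Tnfrsf23 being lost. Tnfrsf11b missed the threshold at the lower pseudocount, 0.1 TPM (limma adjusted p = 0.0502), without a trend (0.0713) and in the robust fit (0.0582), and Tnfrsf23 without a trend (0.0523). The cause of these losses was not tested. The depth is unknown, so the precision of low levels, such as those of the 10 untested ligands, cannot be given.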
